A study of Rattus norvegicus with 7 samples.

Results

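The genes described here carry, make, break down and read retinoic acid in the rat meibomian gland, which lies in the eyelid and releases whole lipid-filled cells to coat the tear film. They were chosen by symbol: Crabp1, Crabp2, Aldh1a1, Aldh1a2, Aldh1a3, Cyp26b1, Dhrs9, Rarb and Rarg. Of these 9 genes, 8 were found among the 17246 genes read, and Dhrs9, a retinol dehydrogenase gene, was not analysed here. All 8 passed the filter on low counts and were tested. RNA was sequenced from whole glands in 7 libraries. Every animal was a wild-type female of the Sprague-Dawley strain and 3 months old. The 4 control libraries came from rats that the labels list as untreated. The 3 UVB libraries came from rats whose shaved upper lids received ultraviolet B light at 300 mJ/cm2 in a 5 min session, repeated daily for 5 days, before the glands were dissected. Whether the controls were shaved, and when the glands were taken after the last session, is not given in the sources used here. The 7 columns carry different numbers in their names, which may be those of animals, but no label says what they are or that each library is a separate animal. The p-values therefore measure only the spread between these samples, which may be technical in part.

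Retinoic acid is made from dietary vitamin A in 2 oxidation steps, retinol to retinaldehyde and retinaldehyde to retinoic acid. Cellular binding proteins carry the product to the nucleus or to the enzymes that destroy it, and nuclear retinoic acid receptors, paired with retinoid X receptors, bind DNA and switch target genes. In sebaceous glands and in the meibomian gland, retinoids are known for reducing lipid output and gland size, and the drug isotretinoin is known for causing meibomian gland dysfunction.

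Receptor pairs recognise a direct repeat of a hexamer, and a spacer of 5 bases between the 2 copies is the form best known at retinoic acid targets. The 300-base windows around the gene starts in RefSeq (250 bases before and 50 after, assembly GRCr8) were searched on both strands for repeats of the hexamer AGGTCA or of its relatives (AGTTCA in some elements, GGGTCA in others, and GGTTCA at Rarb), in any combination, with spacers of 1, 2 or 5 bases. All 9 listed genes have a window, as do 59 of the 91 genes in the members and pathway lists together. Rarb and Cyp26a1 were the only 2 of those 59 with a match, both with the spacer of 5. They are shown because these letters are what the receptors are known to read, and capitals mark the half-sites, 5′ to 3′; positions count the first base of the gene as 1 and the base before it as -1.
Rarb, GRCr8 chr15:11336410-11336439, plus strand, bases 25 to 41 from the gene start: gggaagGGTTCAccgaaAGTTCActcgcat
Cyp26a1, GRCr8 chr1:244883723-244883752, minus strand, bases -92 to -76 from the gene start and on the strand opposite to the gene: caaattAGTTCAcccaaAGTTCAtctttaa
Of the 27457 genes with a window, 116 (0.422%) held the repeat with the spacer of 5, 75 (0.273%) that with 1 and 48 (0.175%) that with 2. A match describes letters in the window and is not a measured binding site. GGTTCA was searched as the form at Rarb, so the Rarb match follows in part from that choice. The matches are therefore not to be read against the share over all windows. Rarb and Cyp26a1, whose windows hold the repeat, are both widely used as readouts of retinoic acid signalling; their levels in these glands are given with the receptors and with the breakdown enzymes below.

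The libraries held 20680237 to 28784941 counts, with a count for 15443 to 15705 genes. In the quasi-likelihood test of edgeR over 13709 genes (Benjamini-Hochberg adjusted p under 0.05), 1787 passed, or 13.0%, with 863 (6.30%) higher and 924 (6.74%) lower in the UVB libraries. All UVB libraries lay on one side of all controls for 3645 genes, or 26.6%. The gland's own markers were present: all 11 listed meibocyte genes were found, none at 0, and their summed level lay between 43734 and 57555 TPM (a level corrected for transcript length and scaled to a common total) in every library. In whole glands, fewer cells of a type and less RNA per cell cannot be told apart.

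Of the 8 retinoid genes, 1 passed the test, Crabp1, and it was lower in the UVB libraries; this is 12.5% of the 8, near the share over all genes. Their median log2 fold change was -0.07, against -0.01 over all tested genes. The groups did not overlap for 1 of the 8, Rarg. By mean TPM in the controls the order was Crabp2, Rarg, Crabp1, Aldh1a1, Aldh1a3, Cyp26b1, Rarb and Aldh1a2, from 210 TPM down to 0.81 TPM. Neighbours in this order were apart in both groups, except that Aldh1a1 and Aldh1a3 overlapped in the UVB libraries, and Cyp26b1 and Rarb overlapped in both. The binding proteins and Rarg were thus the abundant transcripts, and the enzymes and Rarb were low.

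**Figure D1:**
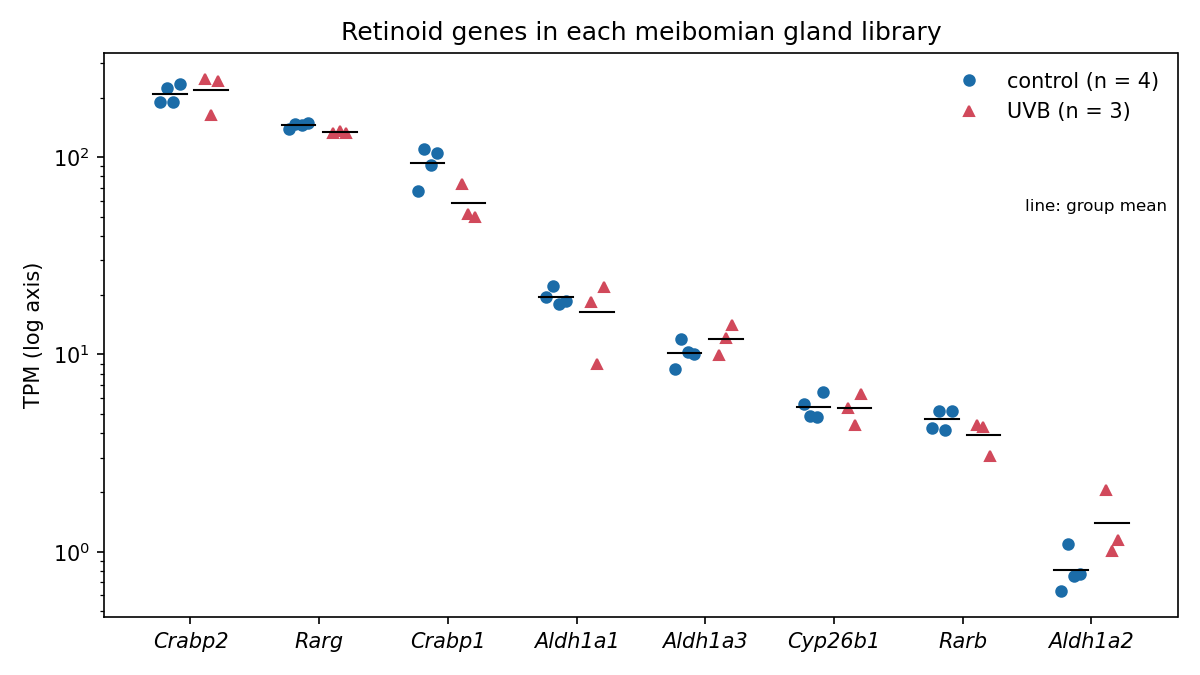
TPM of the 8 retinoid genes on a log axis, ordered by control mean; circles are the 4 control libraries, triangles the 3 UVB libraries and lines the group means. Crabp2 is highest, at 163 to 250 TPM, and Aldh1a2 lowest, at 0.63 to 2.05 TPM.

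Crabp1 and Crabp2 encode the 2 cellular retinoic acid binding proteins. CRABP1 is known for holding retinoic acid in the cytoplasm and passing it to the enzymes that degrade it, and CRABP2 for delivering it to the receptors. Crabp1 measured 67.1, 110, 90.9 and 105 TPM in control libraries a to d and 73.4, 51.7 and 49.8 TPM in UVB libraries a to c. UVB b and c were below every control, and UVB a was above control a, so the groups overlapped. In CPM (counts per library total with TMM factors, not corrected for length) the mean of Crabp1 was 34.8 ± 7.19 (SD, n = 4) for control and 21.6 ± 4.53 (SD, n = 3) for UVB libraries. It fell by 0.69 on the log2 scale (SE 0.191, adjusted p = 0.0496 by edgeR; 95% interval of the log2 difference, unadjusted, -1.13 to -0.25), which is 0.62 times the control level.

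The fall of Crabp1 sat at the threshold. Its direction was the same under all 18 alternatives, with log2 fold changes from -0.87 to -0.58, but the adjusted p, 0.00416 (DESeq2) to 0.154 (without UVB b), was under 0.05 in only 5: DESeq2, limma-voom, a mean count of at least 50, without control a and without UVB a. It was lost without control b, c or d or UVB b or c, and also when the same counts were left unrounded (adjusted p = 0.051 by edgeR). Crabp1 counts were not whole in 6 libraries, by at most 0.12 of a count.

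**Figure D2:**
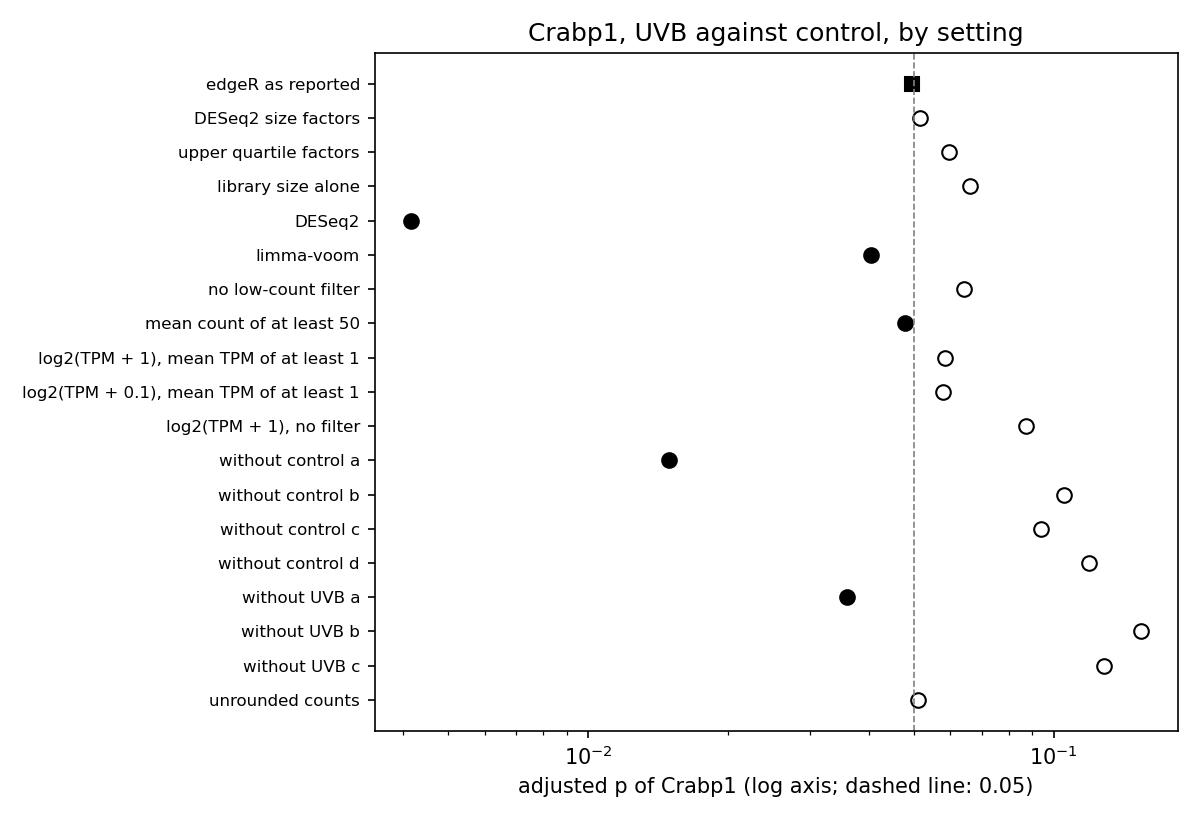
Adjusted p of Crabp1 (log axis) for edgeR as reported (square) and 18 alternatives (circles); filled symbols are under the dashed line at 0.05. The reported value, 0.0496, lies on the line, and 5 of the 18 alternatives lie below it.

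Crabp2 measured 190, 225, 190 and 236 TPM in controls a to d and 250, 163 and 245 TPM in UVB a to c. The UVB libraries included both the lowest and the highest value of the 7. The log2 fold change of this gene was 0.05 (SE 0.147, adjusted p = 0.842 by edgeR), and the unadjusted 95% interval, -0.28 to 0.39, spans 0.822 to 1.31 times the control level. The ratio of Crabp2 to Crabp1 in TPM was 2.83, 2.04, 2.09 and 2.24 in the controls and 3.41, 3.16 and 4.92 in the UVB libraries, so all UVB libraries were above all controls. This ratio was not tested, since both genes were chosen with earlier results known. Among single genes tested, 26.6% had groups that did not overlap, and no such share was computed for ratios. Crabp1 was 30.6% ± 3.09 (SD, n = 4) of the summed TPM of the 2 genes in controls, against 21.2% ± 3.79 (SD, n = 3) in UVB libraries.

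Another carrier stood far above both. Fabp5, a fatty acid binding protein gene of keratinocytes and sebocytes whose product can also carry retinoic acid, measured 3281, 2685, 3298 and 2828 TPM in controls and 4499, 4796 and 3944 TPM in UVB libraries. Every UVB library was above every control. Fabp5 rose by 0.54 on the log2 scale (SE 0.106, adjusted p = 0.0129 by edgeR), a call lost only under log2(TPM + 1) without a filter (adjusted p = 0.055) among 18 alternatives. Markers of keratinocytes were mixed. Of 6 basal keratinocyte genes tested, 3 were higher and 0 lower, beside 6.30% higher over all tested genes. The log2 fold changes of Krt5 (-0.02), Tp63 (-0.09) and Col17a1 (-0.18) were below 0 and did not pass. The summed level of the basal list was 8109 to 10332 TPM in controls and 10579 to 11685 TPM after UVB. Of 5 wound keratinocyte genes 3 were higher and 0 lower (4114 to 4531 TPM, 4728 to 6135 TPM). None of the genes of these lists was at 0. In 2 other lists the calls were in the other direction: of 8 suprabasal keratinocyte genes tested, 0 were higher and 2 lower, Krt77 (log2 fold change -5.90) and Sbsn (-0.53), with a summed level of 4815 to 5775 TPM in controls and 4920 to 7513 TPM after UVB. Of the 11 meibocyte genes, 0 were higher and 3 lower, beside 6.74% lower over all tested genes. The part of any of these cells in the Fabp5 result was not tested. Of the 3 carriers, then, Fabp5 rose and Crabp2 did not pass the test. Crabp1 fell, with a call kept in only 5 of 18 alternatives.

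Crabp1 is known in skin from fibroblasts and the dermal papilla of the hair follicle. Calls in the marker lists went in different directions, lower for hair follicle and dermal papilla and higher for fibroblasts. The hair follicle list is separate from those of the dermal papilla and fibroblasts. Over all tested genes 6.30% were higher and 6.74% lower, the shares to set beside the counts in these lists. Of 11 hair follicle genes, all tested and none at 0, 5 were lower and 0 higher in the UVB libraries. They included the companion layer keratin gene Krt75 (log2 fold change -0.73, SE 0.102, adjusted p = 0.00436) and the matrix transcription factor gene Msx2 (-1.04, SE 0.237, adjusted p = 0.0241); the latter call was lost in 2 of 18 alternatives. Their summed level was 935 to 1365 TPM in the controls and 474, 418 and 984 TPM in UVB a, b and c. Of 8 dermal papilla genes, 6 were tested and none was at 0 in all libraries. Lef1 (-1.13, SE 0.201, adjusted p = 0.00933) and Prdm1 (-0.47, SE 0.132, adjusted p = 0.0479, lost in 11 of 18 alternatives) were lower. The others tested did not pass: Hhip (-0.99) and Sox2 (-0.215) were below 0, and Alx4 (0.04) and Wif1 (0.17) above. The summed level of the dermal papilla list was 29.9 to 34.6 TPM in controls and 21.5 to 30.2 TPM after UVB. Of 7 fibroblast genes, none at 0, Lum (1.95, SE 0.213, adjusted p = 0.00348), Pdgfra (0.91, SE 0.117, adjusted p = 0.00348) and Dcn were higher and none lower, with a summed level of 988 to 1524 TPM in controls and 1301 to 2053 TPM after UVB. The part of these cells in the Crabp1 result was not tested.

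The genes whose log2 CPM followed Crabp1 most closely over the 7 libraries were Ctdsp1, a nuclear phosphatase gene, with Pearson r = 0.99, and Fbf1, a gene of the centriole and cilium, with r = 0.987, out of 11358 genes with a mean count of at least 50. Control a was the lowest control for both, as for Crabp1: Ctdsp1 measured 113 CPM there and 119 to 127 CPM in the other controls, and 116, 106 and 106 CPM in UVB a to c. Fbf1 measured 53.5, 69.7, 63.2 and 67.3 CPM in controls and 58.6, 48.5 and 49.1 CPM in UVB libraries. Their log2 fold changes were smaller than that of Crabp1 and did not pass (-0.15 and -0.28, adjusted p = 0.157 and 0.103 by edgeR). The values share 7 libraries and their scaling, so r is a description.

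**Figure D3:**
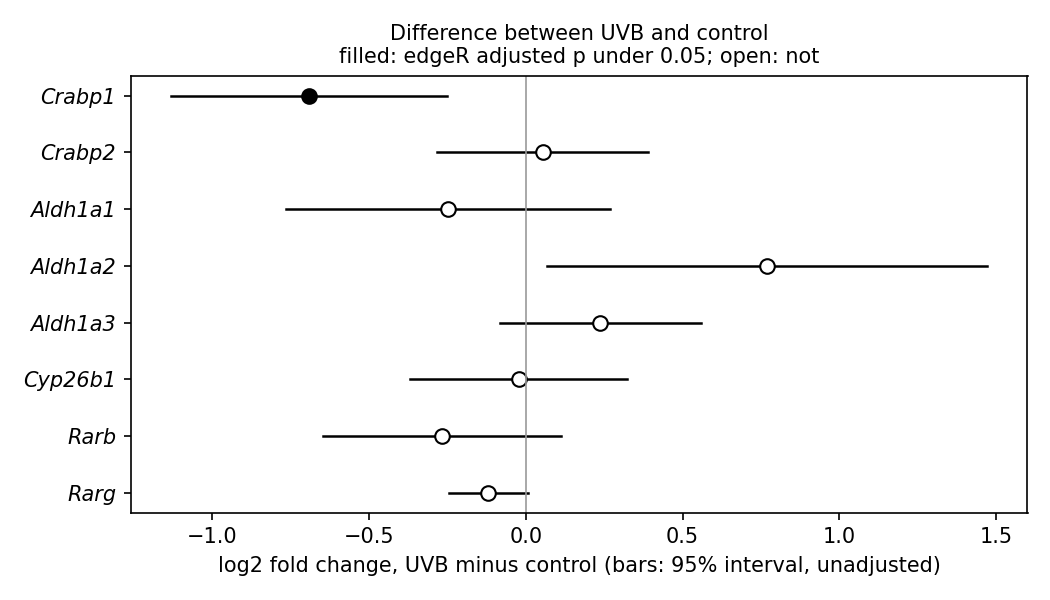
Log2 fold change, UVB minus control, of the 8 retinoid genes with unadjusted 95% intervals; the filled point passed the edgeR threshold and open points did not. Crabp1 is at -0.69, Aldh1a2 has the widest interval, 0.07 to 1.47, and Rarg the narrowest, -0.25 to 0.01.

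Aldh1a1, Aldh1a2 and Aldh1a3 encode the retinaldehyde dehydrogenases, which catalyse the last and irreversible step of retinoic acid synthesis. None of the 3 passed the test. Aldh1a1, the most abundant, measured 19.6, 22.2, 18.0 and 18.6 TPM in controls and 18.5, 9 and 22.0 TPM in UVB a to c. UVB b alone lay outside the control range on the low side. The log2 fold change was -0.25 (SE 0.224, adjusted p = 0.502 by edgeR; 95% interval -0.77 to 0.27, unadjusted), and without UVB b it was 0.01 (adjusted p = 0.974).

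Aldh1a3, known as the retinaldehyde dehydrogenase of several surface epithelia, measured 8.45, 11.9, 10.3 and 10.1 TPM in controls and 9.94, 12.1 and 14.1 TPM in UVB libraries. The groups overlapped, with UVB b and c above all controls (log2 fold change 0.24, SE 0.142, adjusted p = 0.298 by edgeR; 95% interval -0.08 to 0.56, unadjusted). Aldh1a2, known chiefly as the enzyme of the embryo and of mesenchyme, measured 0.63, 1.09, 0.75 and 0.77 TPM in controls and 2.05, 1.01 and 1.14 TPM in UVB libraries. UVB a was the highest of the 7, and UVB b was below control b. The log2 difference of 0.77 (SE 0.313, adjusted p = 0.135 by edgeR; 95% interval 0.07 to 1.47, unadjusted) was the largest rise among the 8 genes at the lowest level. Aldh1a2 averaged 1.07 ± 0.263 CPM (SD, n = 4) over the controls against 1.84 ± 0.712 CPM (SD, n = 3) over the UVB libraries, and the log2 difference was 0.42 without UVB a.

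Summed over the 3 genes, the level was 30.6 ± 3.1 TPM (SD, n = 4) for control and 30 ± 7.61 TPM (SD, n = 3) for UVB libraries. The sum was 30.5, 22.1 and 37.3 TPM in UVB a, b and c, so the UVB libraries lay on both sides of the control range, 28.7 to 35.3 TPM. Aldh1a1 made up 61.9% to 68.4% of the sum in the controls and 60.7%, 40.7% and 59.1% in UVB a to c, below the controls in each. Aldh1a3 made up 29.4% to 35.5% in controls, and in UVB b its share was 54.7%, the one library in which it exceeded Aldh1a1. With Aldh1a7, a near copy of Aldh1a1 that shares its reads, added to the sum, the level was 78.2 to 85.1 TPM in controls and 81.8, 24.7 and 115 TPM in UVB a to c. Aldh1a1 then made up 22.9% to 26.5% in controls and 22.6%, 36.4% and 19.2% in UVB a to c, on both sides of the controls, so its lower share after UVB was seen only in the sum without Aldh1a7.

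The value of Aldh1a1 rests in part on how reads were divided with Aldh1a7. Counts of both were not whole in 6 libraries, yet their sum was whole in all 7 (within 0.01), so the 2 genes shared reads that the counting split. The remaining library was UVB b, where both counts were whole (386 and 103), so no split of reads shows there. Aldh1a7 was the more abundant of the pair and the most abundant of the synthesis list. Whether its product oxidises retinaldehyde was not measured here. Aldh1a7 measured 85.9, 73.3, 73.0 and 73.9 CPM in controls and 75.6, 3.99 and 116 CPM in UVB a, b and c. UVB b thus held 103 counts against 1570 to 3011 in the other libraries, 18.3-fold under the lowest of the others in CPM. Aldh1a1 was also at its lowest there, 14.9 CPM against 25.3 to 32.6 CPM. Aldh1a7 took 69.2% to 78.8% of the summed counts of the pair in the other 6 libraries and 21.1% in UVB b.

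With the counts of the pair summed, an alternative added after the data were seen, the log2 fold change was -0.24 (SE 0.565, adjusted p = 0.820 by edgeR). For Aldh1a7 alone it was -0.23 (SE 0.822, adjusted p = 0.883), and without UVB b 0.33 (adjusted p = 0.255). Such a gap was rare: among the 13709 genes tested, UVB b held 2 that were at least 10-fold under every other library with at least 1 CPM in each of those; UVB c held 2, control b 1, and the other 4 libraries none.

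**Figure D4:**
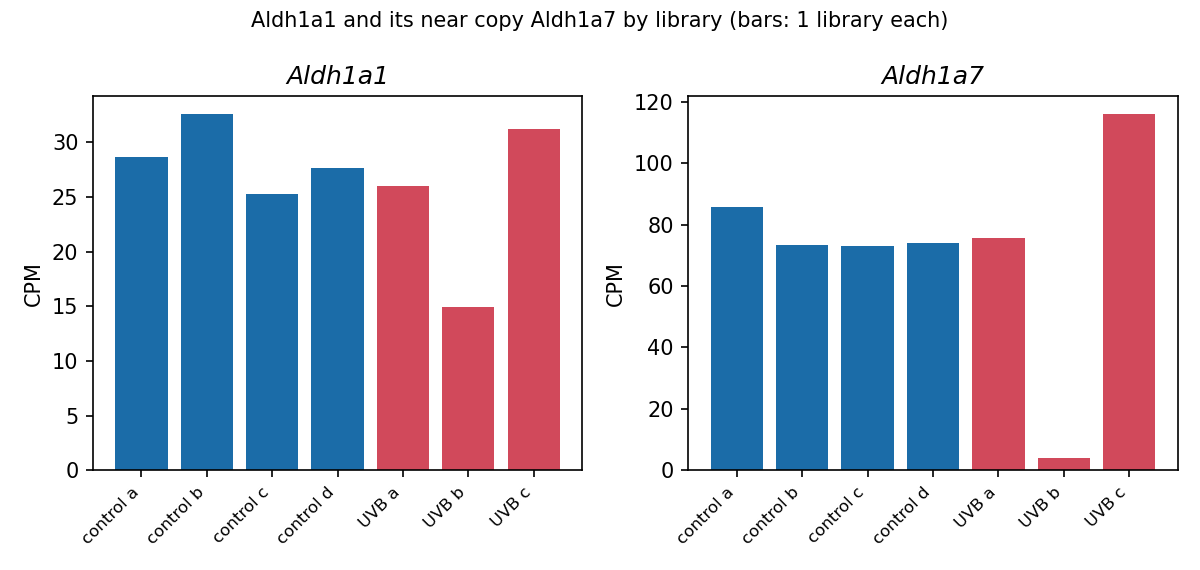
CPM of Aldh1a1 and of its near copy Aldh1a7, 1 bar per library, controls a to d then UVB a to c, on linear axes from 0. Both genes are lowest in UVB b, at 14.9 and 3.99 CPM.

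Cyp26b1 encodes a cytochrome P450 that hydroxylates and clears retinoic acid, and is itself known to be induced by it. It measured 5.62, 4.85, 4.80 and 6.49 TPM in controls and 5.38, 4.40 and 6.31 TPM in UVB libraries, with 2 of the 3 UVB values inside the control range. The log2 fold change of this gene was -0.02 (SE 0.155, adjusted p = 0.941 by edgeR), with an unadjusted 95% interval of -0.37 to 0.32. Of its family, Cyp26a1, one of the 2 genes with the repeat shown above, was at 0 in all 7 libraries, where 3 counts, the limit that a count of 0 allows, equal 0.104 to 0.145 CPM. Cyp26c1 was listed at 0.05 TPM in 2 controls and at 0 in the other 5 libraries. Neither passed the filter on low counts, so Cyp26b1 was the one member of the family that could be tested. A listed level of 0 need not mean that a transcript is absent. Ep300, a coactivator gene that most cells use, was listed at 0 in 6 libraries, and the cause was not tested.

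Another P450 gene of the breakdown list was the more abundant. Cyp3a9, which encodes a member of the CYP3A family of steroid and drug hydroxylases, measured 51.4, 60.0, 60.2 and 64.5 TPM in controls and 34.3, 32.0 and 34.1 TPM in UVB libraries, all UVB below all controls. Cyp3a9 fell by 0.83 on the log2 scale (SE 0.0798, adjusted p = 0.00107 by edgeR) and passed in all 18 alternatives. Of the 5 breakdown genes, 3 were tested, 0 were higher and 1 was lower, beside 6.74% lower over all tested genes.

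Rarg and Rarb encode retinoic acid receptors gamma and beta. Gamma is known as the main receptor of epidermis, and beta as a receptor whose own gene responds to retinoic acid through a repeat near its start. Rarg measured 140, 147, 146 and 150 TPM in controls and 133, 137 and 134 TPM in UVB libraries. Every UVB library was below every control by a narrow gap, 137 against 140 TPM, and the spread within groups was the smallest of the 8 genes (coefficient of variation of CPM 3.01% in controls and 2.96% after UVB). The log2 fold change of this gene was -0.12 (SE 0.0561, adjusted p = 0.187 by edgeR; 95% interval -0.25 to 0.01, unadjusted), and it did not pass in any of 18 alternatives (-0.14 to -0.10). Groups that do not overlap were found for 26.6% of all tested genes.

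Rarb measured 4.23, 5.19, 4.13 and 5.19 TPM in controls and 4.41, 4.29 and 3.04 TPM in UVB libraries. UVB c was below all other libraries, and UVB a and b lay between the controls. The log2 fold change was -0.27 (SE 0.169, adjusted p = 0.323 by edgeR; 95% interval -0.65 to 0.11, unadjusted). Rarg made up 87.4% ± 0.66 (SD, n = 4) of the summed TPM of the 3 retinoic acid receptor genes in controls and 86.2% ± 1.21 (SD, n = 3) after UVB, and Rarb 2.81% ± 0.281 and 2.50% ± 0.448. The remainder was Rara, the widely expressed receptor alpha gene.

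Among their partners, a single gene likewise made up most of the summed level. Rxra, the retinoid X receptor alpha gene, made up 89.1% of the summed TPM of the 3 retinoid X receptor genes in both groups, and measured 141 to 163 TPM in controls and 139 to 160 TPM after UVB (log2 fold change -0.03, SE 0.0808, adjusted p = 0.812 by edgeR). Of the 6 receptor genes, all were tested and none passed in either direction. Of 12 coregulator genes, 10 were tested, 0 were higher and 2 were lower, beside 6.74% lower over all tested genes. The 2 were coactivator genes: Ncoa2 (-0.33, SE 0.0597, adjusted p = 0.0106) averaged 78.0 ± 2.07 CPM over the 4 controls and 62.3 ± 3.25 CPM (SD) over the 3 UVB libraries, and Ncoa1 (-0.29, SE 0.0591, adjusted p = 0.0155) averaged 138 ± 2.06 CPM and 113 ± 7.02 CPM. Both passed in all 18 alternatives, with no overlap between groups. Cnot1, a scaffold gene of the deadenylase complex and the most abundant of the list, had a log2 fold change of 0.03 (SE 0.0552, adjusted p = 0.729).

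The other genes of the pathway were counted by step. Over 9 pathway lists with the 8 genes included, 91 genes were listed, 79 found and 65 tested; 9 were higher, 7 lower, and 24.6% passed in either direction, beside 13.0% of all tested genes. Without the 8 genes the share was 26.3% of 57. Their median log2 fold change was 0.03. Leaving out 1 library gave 12 to 16 calls in place of 16. The lists were chosen with earlier results known, and nothing was tested for the lists as such.

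**Figure D5:**
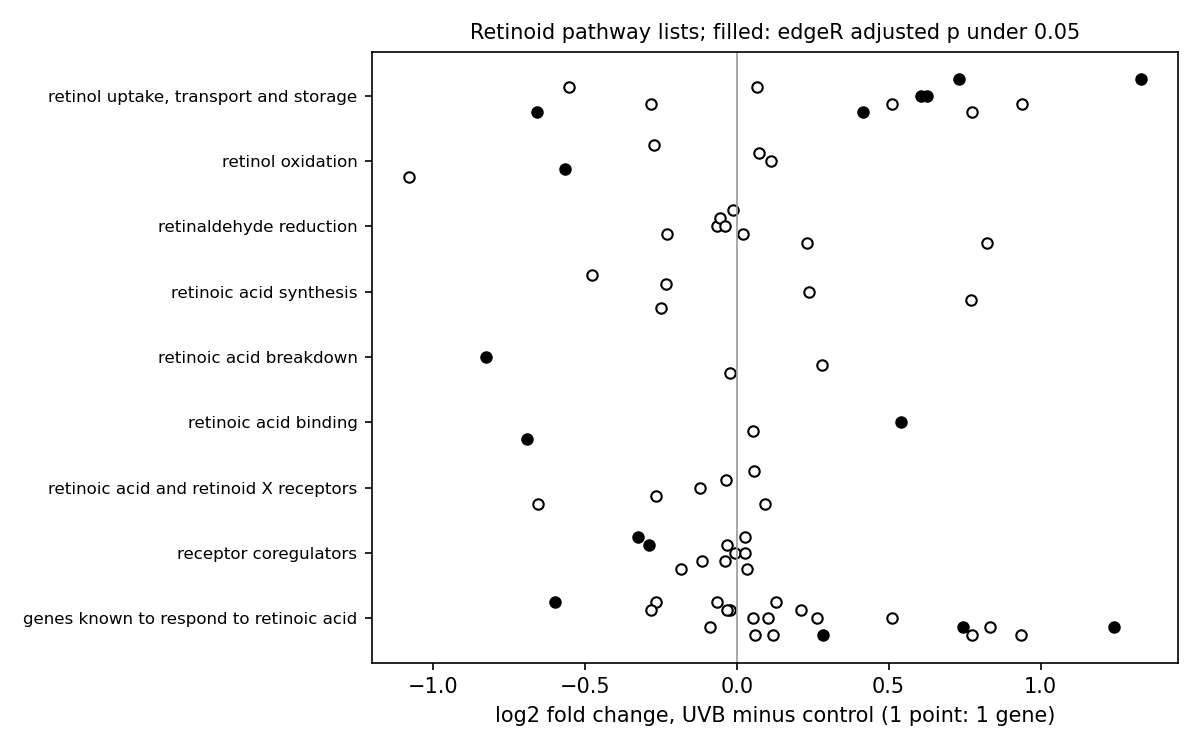
Log2 fold change, UVB minus control, of the tested genes of 9 retinoid pathway lists, 1 point per gene (a gene in 2 lists appears in each; the vertical offset within a list carries no value). Filled points passed the edgeR threshold; uptake, transport and storage has 5 filled points above 0, while retinaldehyde reduction and the receptors have none.

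Upstream of retinaldehyde, the list for uptake, transport and storage of retinol held most of the rises. Of its 16 genes, 12 were tested, 5 were higher and 1 lower, beside 6.30% higher and 6.74% lower over all tested genes. The median log2 fold change of the list was 0.56. Lpl, the lipase that frees fatty acids and retinyl esters from lipoproteins, measured 12.9, 13.4, 17.7 and 13.4 TPM in controls and 35.4, 35.2 and 37.7 TPM in UVB libraries. The UVB values stood together well above the controls. Lpl rose by 1.33 on the log2 scale (SE 0.0989, adjusted p = 0.00063 by edgeR), 2.51 times the control level, and passed in all 18 alternatives. Macrophages are among the cells known to make this lipase. Of 7 macrophage genes, none at 0, 3 were higher, Cd163 and C1qb among them, and 0 lower, beside the same 6.30% higher over all tested genes. In the same list Cd68 (log2 fold change -0.41), Csf1r (-0.01), Adgre1 (0.11) and C1qa (0.85) overlapped between groups and did not pass. The summed level of the list was 73.0 to 134 TPM in controls and 106 to 185 TPM after UVB. The part of macrophages in the Lpl result was not tested. Dgat1, an acyltransferase that can esterify retinol as well as diacylglycerol, rose by 0.60 (SE 0.0769, adjusted p = 0.00333), from 15.4 to 17.3 TPM in controls to 24.0 to 25.4 TPM after UVB.

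Rbp2, a cellular retinol binding protein gene best known from the intestine, rose by 0.63 (SE 0.124, adjusted p = 0.0139 by edgeR), with 42.9 to 59.8 TPM in controls and 71.0 to 90.0 TPM after UVB. Awat2, a wax synthase that can also esterify retinol and one of the gland's most abundant transcripts, fell by 0.66 (SE 0.0927, adjusted p = 0.00453), from 10767 to 12062 TPM in controls to 6961 to 7744 TPM after UVB. The call of Awat2 was lost only under log2(TPM + 1) without a filter (adjusted p = 0.0761). Awat2 is also a meibocyte marker. Of the 11 meibocyte genes 3 were lower, Awat2 among them, and 0 higher, beside 6.74% lower over all tested genes. Their summed level was 47625 to 57555 TPM in controls and 43734 to 50779 TPM after UVB. Awat2 is part of that sum, so the list is not separate from the Awat2 result. The part of these cells in the Awat2 result was not tested.

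Retinol oxidation had 1 call among 5 tested genes, beside 13.0% called over all tested genes. Adh7, the class IV alcohol dehydrogenase of surface epithelia, measured 97.8, 120, 94.3 and 123 TPM in controls and 66.3, 74.3 and 80.5 TPM in UVB libraries, with no overlap. Adh7 fell by 0.56 on the log2 scale (SE 0.121, adjusted p = 0.0201 by edgeR); the call was lost without UVB a (adjusted p = 0.0612) or UVB b (0.0654). Sdr16c5, an epidermal retinol dehydrogenase gene and the most abundant of the list, measured 792 to 980 TPM in controls and 877 to 965 TPM after UVB (log2 fold change 0.07, SE 0.0937, adjusted p = 0.641). In the opposite reaction, retinaldehyde back to retinol, all 8 genes found were tested and none passed. Its most abundant gene, Rdh12, measured 820 to 1047 TPM in controls and 1002 to 1161 TPM after UVB (0.23, SE 0.101, adjusted p = 0.16), and it passed in 1 of 18 alternatives, without control a (adjusted p = 0.0445).

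Among 30 genes known to respond to retinoic acid, 21 were tested, 3 were higher and 1 lower, beside 6.30% higher and 6.74% lower over all tested genes, and the median log2 fold change was 0.12. The list includes Rarb, Cyp26b1 and Crabp2 described above, none of which passed, and Cyp26a1, which was at 0 and not tested. Rarres2, the chemerin gene, measured 33.5, 41.9, 45.3 and 36.8 TPM in controls and 144, 62.5 and 76.3 TPM in UVB libraries, all UVB above all controls with UVB a the highest. Rarres2 rose by 1.24 on the log2 scale (SE 0.264, adjusted p = 0.0239 by edgeR), a call lost when any 1 of the 4 controls was left out (adjusted p up to 0.0664). Gprc5a, an orphan receptor gene, rose by 0.74 (SE 0.148, adjusted p = 0.0141 by edgeR), from 4.68 to 6.22 TPM in controls to 8.02 to 11.2 TPM after UVB.

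Zfp703, a zinc finger repressor gene, rose by 0.28 (SE 0.0546, adjusted p = 0.0123 by edgeR). Tgm2, the tissue transglutaminase gene and a long-used marker of retinoic acid response, moved the other way. It measured 76.5, 73.4, 92.5 and 78.2 TPM in controls and 62.2, 46.8 and 51.2 TPM in UVB libraries, all UVB below all controls. Tgm2 fell by 0.60 on the log2 scale (SE 0.1, adjusted p = 0.00786) and, like Gprc5a and Zfp703, passed in all 18 alternatives. Krt13, a keratin gene of lining epithelia and the most abundant of the list, had a log2 fold change of 0.21 (SE 0.120, adjusted p = 0.270). The 4 calls thus went in both directions.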

How the data were processed

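RNA sequencing libraries of rat meibomian gland (4 control, 3 UVB) were compared. The authors deposited a table of estimated counts per gene, which they call raw and did not normalise; 12.5% of its values were not whole. They also deposited TPM values, levels per transcript length scaled to a common total. The submitters' processing notes name FastQC, Trimmomatic, DRAGEN, Picard and the build rn7, without roles; the annotation and strand handling are not given in the sources used here. Gene names with unquoted commas shift cells, and each row's 7 values were taken from its right end; 5 rows per table were left out. Columns name the group and not the labelled replicate, so letters a to d carry no pairing. No 2 libraries of a group agreed within sampling noise (chi-square per degree of freedom at least 10.5).

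After rounding, edgeR 4.0.16 under R 4.3.3 was run on the counts with robust quasi-likelihood, TMM, filterByExpr and Benjamini-Hochberg adjustment over 13709 genes at 0.05, two-sided; the design had assumed raw counts, and the same test was kept. SE is the absolute log2 fold change over the square root of F, and intervals use the fit's degrees of freedom. CPM was computed here. On simulated data edgeR recovered 89% of 200 genes changed 2-fold, with 4.81% of 187 calls false. Those counts were drawn with the fit's own dispersion and no aberrant library. The share therefore does not apply to more variable genes or to smaller differences. Alternatives used DESeq2 1.42.0, limma 3.58.1 (voom, or log2 TPM), other scalings and filters, unrounded counts, and leaving out each library.

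The genes and lists were chosen with earlier results of these data known. Named genes were every member; per pathway list at most 4 past the threshold and the most abundant; 2 genes closest in pattern to a member past the threshold; and at most 2 such markers per list, or those at 0. Dcn, Cyp26c1, Ep300 and Rara were named after their values were seen. So were the markers given as not passing the test. Of 222 listed symbols, 193 were found as listed, 2 by another symbol through RefSeq (GRCr8), and 27 were not analysed here.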

Additional observations from a re-analysis of the deposited data

Results flagged for a closer look

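In 3 of the 27 genes compared, 1 of the 4 control libraries stood far from the other 3 (Dixon's gap test on the 4 values); about 1 in 20 genes, here 1.35, would do so by chance. For Lpl, control c held 38.7 CPM and the other controls 29.3 to 30.1 CPM. Aldh1a7 measured 85.9 CPM in control a against 73.0 to 73.9 CPM. Ncoa2 measured 75.0 CPM in control a against 78.8 to 79.5 CPM. Groups of 3 were not examined this way, so the UVB value of Aldh1a7 described above is not among them.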

How the results depend on the processing

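Crabp1 was the 1 retinoid gene called. The number called was 0 without the low-count filter, with library sizes alone, upper quartile scaling or DESeq2 size factors, in each of the 3 TPM fits, with unrounded counts, and at adjusted p under 0.01, and 0 to 1 when 1 library was left out. Over all genes, 1787 passed; 1137 passed under log2(TPM + 1) without a filter, 383 at 0.01, and 851 (without control c) to 1898 (without control a) when 1 library was left out, with 943 without control d, 1047 without UVB b, 1097 without control b and 1168 without UVB c. The summed TPM of Aldh1a1, Aldh1a2 and Aldh1a3 differed by -0.67 (UVB minus control), from -4.34 without UVB c to 3.26 without UVB b. Signs changed only when libraries were left out, among the 56 single genes: Crabp2 ran from -0.0374 to 0.22, Cyp26b1 from -0.16 to 0.10, Rxra from -0.10 to 0.023, Aldh1a1 from -0.49 to 0.00821 and Aldh1a7 from -0.96 to 0.33 on the log2 scale; none of these 5 passed in any alternative. Over the same genes, 918 of the alternative values kept direction and side of the threshold, 75 lost the call, 2 gained it and 10 changed sign. Aldh1a2, with 18 to 56 counts per library, has no value at a mean count of at least 50 because that filter removed it. Why other values changed between settings was not tested. No paired analysis was possible because no column name can be tied to one numbered replicate. With 3 and 4 libraries and coefficients of variation of up to 38.7% in CPM among the 8 genes, the intervals above limit what could be detected for Aldh1a2, Aldh1a1 and Rarb.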
